A study of Danio rerio with 2 samples.

Results

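The genes described here make the polyamines putrescine, spermidine and spermine or control that synthesis. They were chosen as the probe sets whose only platform gene symbol is odc1, amd1, srm, sms or oaz1a. Of these 5 genes, 3 (odc1, sms and oaz1a) had such a probe set, 1 each, among 8793 named genes. No probe set carried the symbol or NCBI gene ID of amd1 or srm, alone or with other genes, so both are not analysed here.

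The series holds 2 Affymetrix zebrafish expression arrays, each hybridised with total RNA from 1 preparation of pigment cells. The cells were freed with trypsin and collagenase from tail and anal fins pooled over 1000 wild-type pet shop fish, adults over 2 months old. One array is titled melanophores, the black melanin-making cells, but its source name and cell type field say xanthophores. The other is titled xanthophores, the yellow cells that store pteridines and carotenoids, but its other fields say melanophores. They are called the M-titled array (title melanophores) and the X-titled array (title xanthophores) below, which does not decide the cell type. Each title has 1 array, pooled over many fish, so no difference has a replicate check and no test between cell types was possible.

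Ornithine decarboxylase, odc1, starts the route by turning ornithine into putrescine. Spermidine synthase, srm, and spermine synthase, sms, then add aminopropyl groups, which come from S-adenosylmethionine after its decarboxylation by amd1. Antizymes such as oaz1a are translated when polyamines are plentiful, and they bind ornithine decarboxylase and send it to the proteasome. In zebrafish, spermidine is needed for normal adult stripes, and fish with mutant srm have altered ones.

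Among the genes that make polyamines, both measured enzymes were brighter on the M-titled array, while the antizyme was equal on both as deposited. The odc1 probe set (NCBI gene 114426) had a MAS 5.0 signal of 964 on the M-titled array and 376 on the X-titled array. That is 2.56-fold, or a log2 ratio of 1.36 (M-titled over X-titled, as for every ratio below). The sms probe set (NCBI gene 80872) had a signal of 186 on the M-titled array and 80.2 on the X-titled array, 2.32-fold or a log2 ratio of 1.21. The oaz1a probe set (NCBI gene 259192) had a signal of 4506 on the M-titled array and 4494 on the X-titled array, a log2 ratio of 0.0039. In bulk samples such as these, fewer cells of a type and less RNA per cell cannot be told apart.

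**Figure D1:**
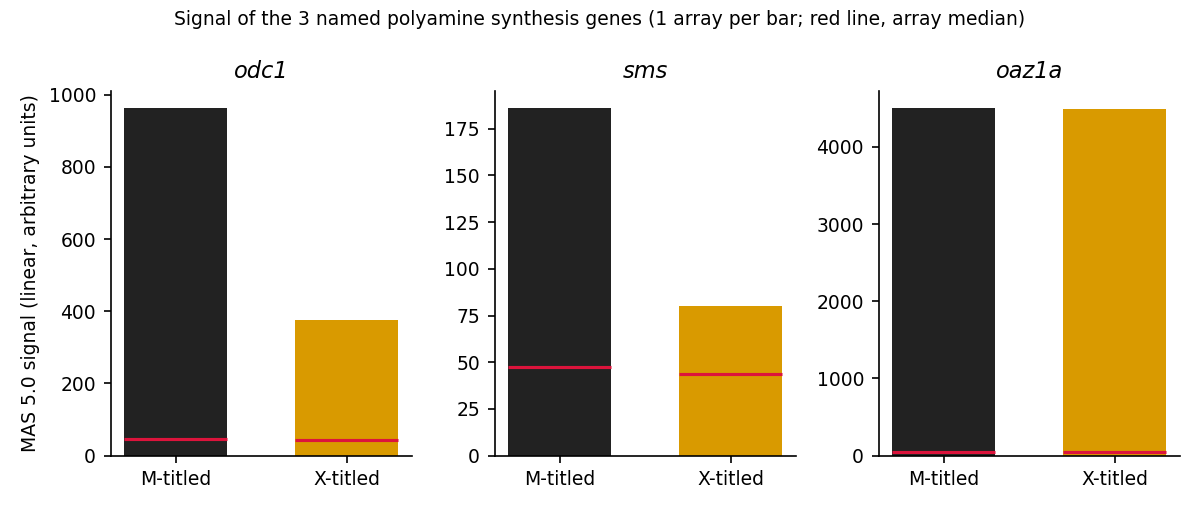
MAS 5.0 signal (linear scale, arbitrary units) of odc1, sms and oaz1a, 1 bar per array, each gene with its own axis; the red line is the median signal of that array, 47.2 (M-titled) or 43.5 (X-titled). The odc1 and sms bars are taller on the M-titled array and the oaz1a bars are level.

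The error of such a ratio was estimated from probe sets that report the same gene. Their log2 ratios differed with an SD of 0.38 for bright probe sets (201 genes with over 1 such probe set), where bright means that the brighter signal reached the 75th percentile of its array. For dimmer probe sets, between the median and the 75th percentile, the SD was 0.40 (178 genes). Each of these SDs compares only probe sets of a gene within the same brightness class, which can narrow the spread. The odc1 and oaz1a probe sets were bright and the sms probe set was among the dimmer ones. As deposited, the ratios of odc1 and sms were thus each over 3 such SDs from 0, and that of oaz1a was under 1. Over all measured probe sets together the SD was 0.46 (597 genes), and neither enzyme's ratio reached 3 of those. These distances are from 0, not from the median of all genes given below. The spread between probe sets is called the technical SD below, and it leaves out fish, preparation and hybridisation. Probe sets of a gene need not read the same transcripts or be independent of each other, so this SD is only a rough scale.

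The M-titled array was the brighter one in general, which bears on every ratio here. All 18 bacterial and phage spike-in probe sets were brighter on it, by a median log2 ratio of 0.38. The 72 measured ribosomal protein probe sets went the other way, with a median of -0.50. The 5501 measured named genes, those whose brighter signal reached its array's median, had a median log2 ratio of 0.36. Of these genes 15.5% were past 2-fold towards the M-titled array and 4.09% towards the X-titled array. Against this, 2 of the 3 members, odc1 and sms, were 2-fold brighter on the M-titled array and none on the other. A ratio as high as that of odc1 or higher was found in 6.85% of the measured genes, as high as that of sms in 9.80%, and as high as that of oaz1a in 71.4%. Measured from the median of these genes, the log2 ratios were 1.00 for odc1, 0.86 for sms and -0.35 for oaz1a.

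**Figure D2:**
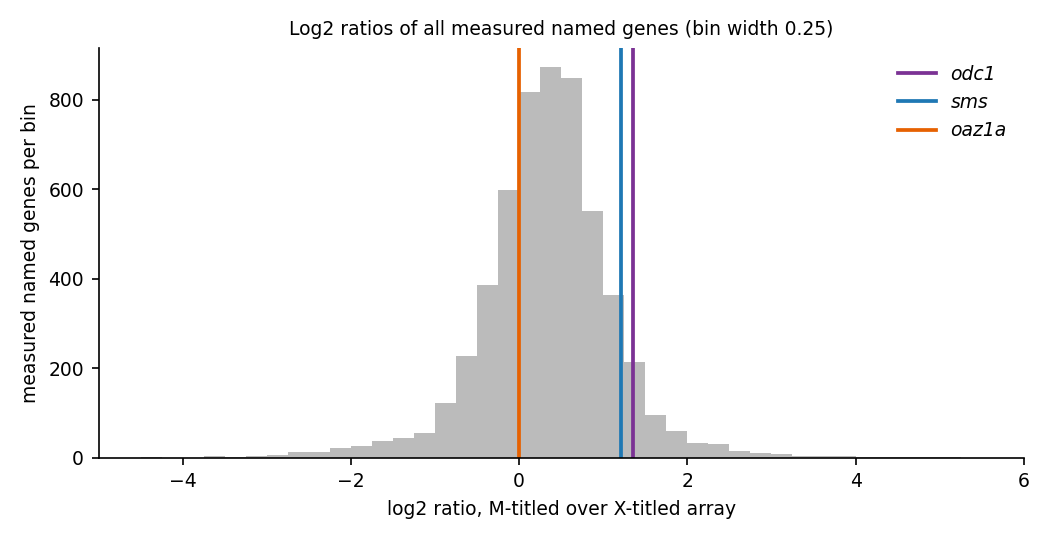
Number of measured named genes per bin of log2 ratio (bin width 0.25; M-titled over X-titled array), with vertical lines at odc1 (1.36), sms (1.21) and oaz1a (0.0039). The bulk of genes lies right of 0, with odc1 and sms on its right shoulder and oaz1a left of the median of 0.36.

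Of the scalings tried beside the deposited one, only the ribosomal scaling kept both enzymes past 2-fold. With the spike-ins set equal, odc1 stood at 1.97-fold and sms at 1.78-fold towards the M-titled array, both under 2-fold, and oaz1a at a log2 ratio of -0.38. With ribosomal protein genes set equal, odc1 stood at 3.64-fold, sms at 3.29-fold and oaz1a at a log2 ratio of 0.51. That scaling put 2271 of the 5387 measured genes past 2-fold towards the M-titled array. The median log2 ratio of all measured genes was then 0.88. Any signal under its array's median, the floor, was raised to it before a ratio was taken, and a ratio against the floor is a lower bound. With a floor at the 65th percentile instead, sms was bound only to at least 1.99-fold. The direction of odc1 and sms was the same under every scaling and floor tried, and that of oaz1a was not. A factor common to the array cancels in the difference between members: the log2 ratio of odc1 exceeded that of oaz1a by 1.35, and that of sms exceeded it by 1.21. These differences, as deposited, are 2.50 and 2.19 times the combined technical SD of the pair. That SD is built from those of the 2 brightness classes, and the larger SD over all measured probe sets would give smaller multiples. After quantile normalization or removal of a signal-dependent trend, which are not common factors, the odc1 difference was 0.98 and 1.01. The sms difference was 0.98 and 1.00. Each is smaller than as deposited, so the multiples of the SD above do not hold for them. The log2 ratios of sms and odc1 differed by 0.14, less than their technical SD. Setting the spike-ins equal also lowers each ratio given below by 0.38 on the log2 scale, so a gene with a ratio between 0 and 0.38 changes direction with it.

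**Figure D3:**
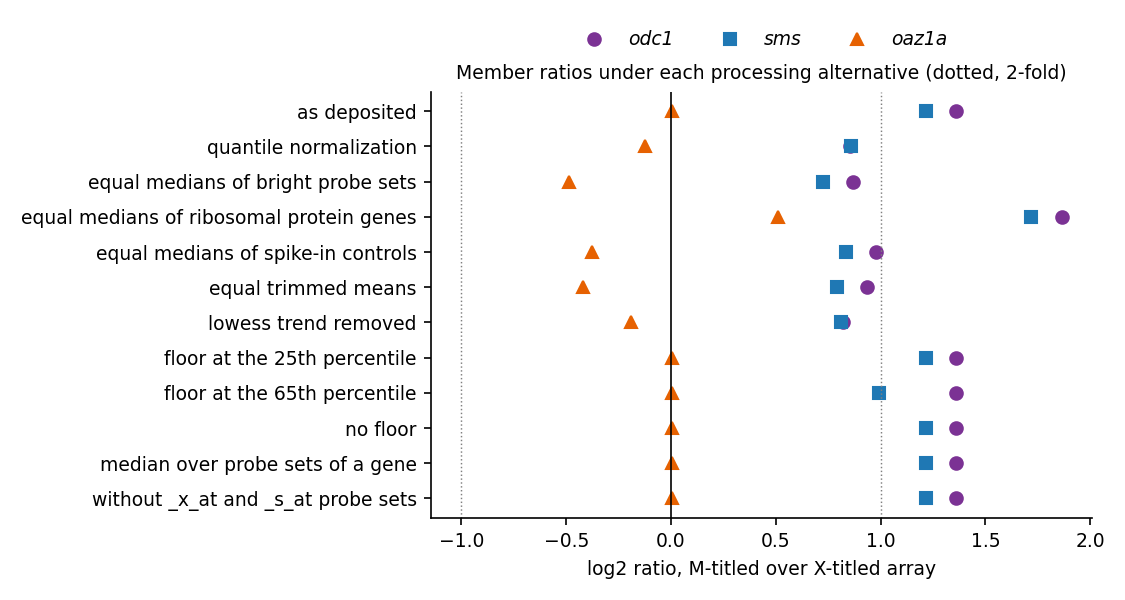
Log2 ratio (M-titled over X-titled array) of odc1 (circles), sms (squares) and oaz1a (triangles) under each processing alternative, with dotted lines at 2-fold. The symbols of odc1 and sms stay right of 0 and cross the 2-fold line with the scaling, while oaz1a lies on either side of 0.

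The other antizymes and their inhibitors were measured by probe sets of 3 genes out of 7 listed. The second antizyme 1 gene, oaz1b, was level as deposited, like oaz1a, with 7378 on the M-titled array and 7257 on the X-titled array (log2 ratio 0.02). Its other probe set read 2693 on the M-titled array and 2407 on the X-titled array (0.16). As oaz1a and oaz1b are paralogs and the brighter oaz1b probe set is of a kind open to cross-hybridisation, their signals may not be independent. The antizyme inhibitor azin1b, a decarboxylase-like protein that frees ornithine decarboxylase by binding antizyme, read 6948 on the M-titled array and 5347 on the X-titled array (0.38), while its second probe set read 131 on the M-titled and 104 on the X-titled array (0.34). Only oaz2b, a further antizyme, was 2-fold brighter: 164 on the M-titled array against 29.9 on the X-titled array, which is under the floor, so at least 3.76-fold. Its second probe set, with 96.4 on the M-titled array and 28.7 on the X-titled array, gave at least 2.22-fold. With the higher floor oaz2b was bound only to at least 1.75-fold.

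Genes of polyamine acetylation and oxidation were listed apart from synthesis. All 4 that were measured, of 12 listed, had a log2 ratio below 0, meaning brighter on the X-titled array. Of all measured genes 28.3% had a ratio below 0 as deposited and 51.4% with the spike-ins set equal. The list's median was -0.98, beside 0.36 over all measured genes. Spermidine/spermine acetyltransferase tags polyamines for export or oxidation. Its gene sat1b read 46.6 on the M-titled array, just under the floor, and 222 on the X-titled array, at least 4.71-fold brighter there. With the higher floor that bound was 1.88-fold. As sat1b could count as measured only through the X-titled array, its direction was largely set by that filter. The paralog sat1a.2 read 2390 on the M-titled array and 3473 on the X-titled array (-0.54), while its second probe set read 1130 on the M-titled and 1978 on the X-titled array (-0.81).

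Spermine oxidase, smox, which turns spermine back into spermidine, read 732 on the M-titled array and 1074 on the X-titled array (-0.55). The copper amine oxidase aoc2 read 212 on the M-titled array and 560 on the X-titled array (-1.40, or 2.64-fold). In humans the enzyme of that name acts on other primary amines, so it may not be a polyamine enzyme. Without aoc2, the middle ratio of the measured genes on this list is that of smox (-0.55). The 2 genes past 2-fold towards the X-titled array as deposited were thus sat1b and aoc2, and sat1a.2 and smox were within 2-fold. With bright probe sets set equal, smox stood at 2.06-fold and sat1a.2 at 2.04-fold towards the X-titled array, and smox also passed 2-fold under quantile normalization (2.11-fold) and lowess (2.09-fold). All 4 had a ratio below 0 under every alternative run, the ribosomal scaling included, where sat1a.2 and smox stood at -0.03 and -0.05. The other listed genes with a probe set, sat1a.1, sat2a.2 and aoc1, were under the floor on both arrays.

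The suppliers of ornithine were brighter on the M-titled array, as the average gene was. The mitochondrial arginase gene arg2, whose enzyme makes ornithine from arginine, read 4431 on the M-titled array and 2556 on the X-titled array (0.79). The cationic amino acid transporter gene slc7a3a read 2510 on the M-titled array and 1501 on the X-titled array (0.74). The gene aldh18a1, for an enzyme of proline and ornithine synthesis from glutamate, read 176 on the M-titled array and 83.6 on the X-titled array, 2.10-fold. These were the 3 measured genes of 12 listed, with a median of 0.79. With bright probe sets set equal it was 0.30.

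Genes of S-adenosylmethionine supply and methylthioadenosine salvage, which feed and clear the aminopropyl donor, went both ways, with 7 measured of 22 listed and a median of 0.26. The methionine adenosyltransferase gene mat2aa read 4665 on the M-titled array and 3739 on the X-titled array (0.32), and mat2b, for its regulatory subunit, read 68.8 on the M-titled and 70.9 on the X-titled array (-0.04). The family member mat1a, which in mammals is the liver form, was the 1 gene of this list past 2-fold, with 201 on the M-titled array and 88.7 on the X-titled array (2.26-fold). The salvage gene mtap, whose enzyme cleaves the by-product of both aminopropyl transfers, read 190 on the M-titled array and 134 on the X-titled array (0.50). The homocysteine cycle genes ahcy and bhmt had log2 ratios of -0.32 and -0.50, and ahcyl2b, an ahcy-like gene, one of 0.26. The second probe sets of bhmt and ahcyl2b were at -0.78 and 0.87, and those of ahcyl2b differ by more than their technical SD.

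Spermidine is also the source of hypusine, an amino acid made only on the translation factor eIF5A. All 4 listed genes of this route were measured, with a median of 0.24. Deoxyhypusine synthase, dhps, read 113 on the M-titled array and 82.7 on the X-titled array (0.44). Deoxyhypusine hydroxylase, dohh, read 217 on the M-titled array and 310.0 on the X-titled array (-0.51). The factor gene eif5a was level as deposited, at 5687 on the M-titled array and 5570 on the X-titled array (0.03). Its second probe set read 878 on the M-titled and 719 on the X-titled array (0.29). The paralog eif5a2 read 4079 on the M-titled and 2003 on the X-titled array (1.03, or 2.04-fold). The second eif5a2 probe set read 171 on the M-titled and 106 on the X-titled array (1.61-fold), so the median over its probe sets, 1.81-fold, is under 2-fold.

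**Figure D4:**
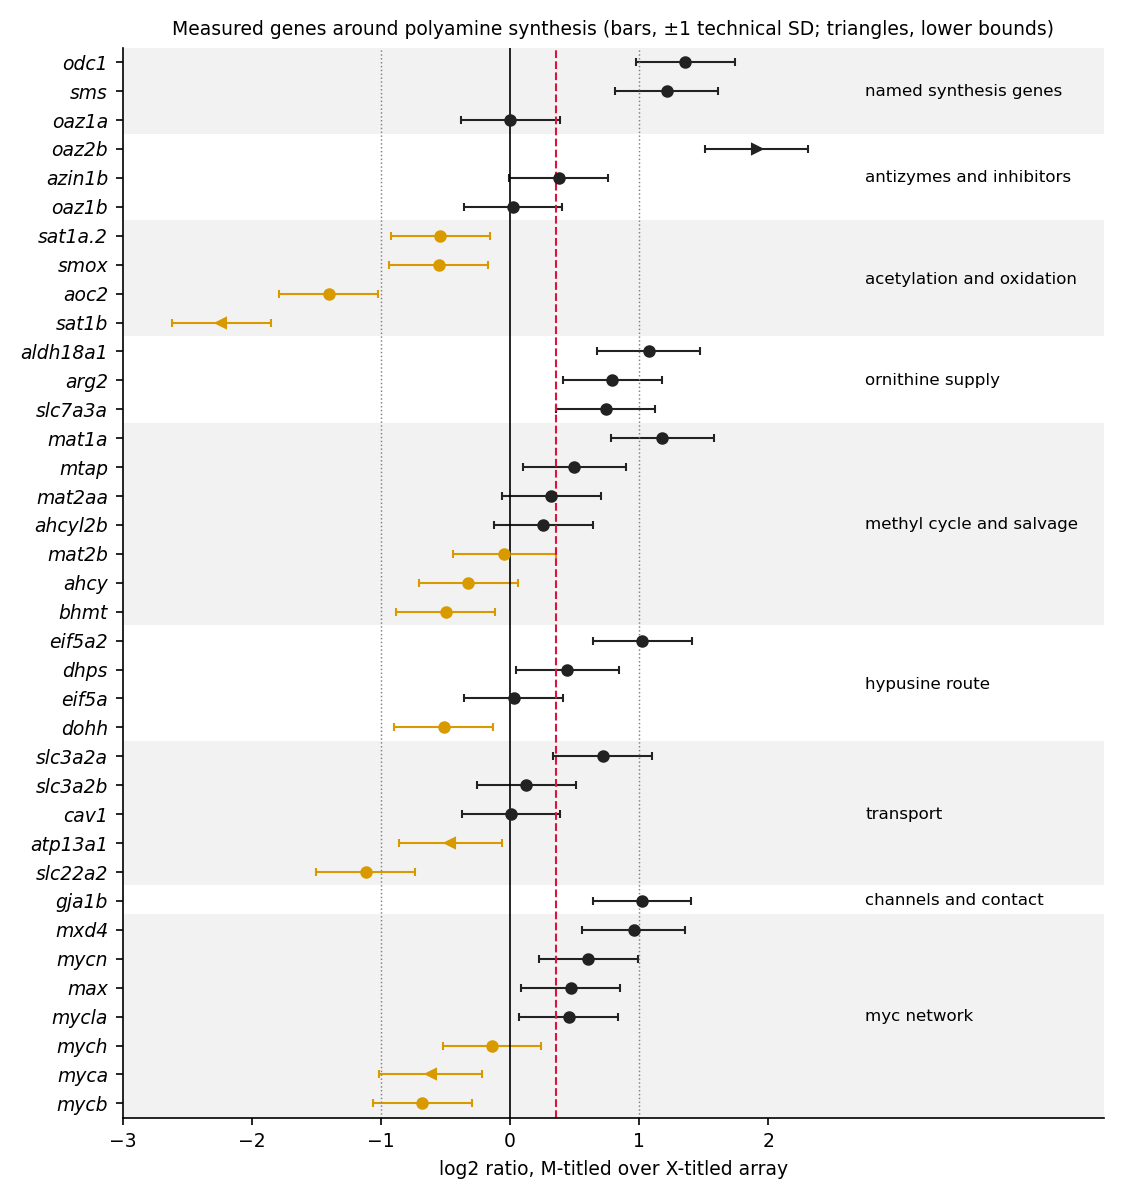
Log2 ratio (M-titled over X-titled array) of the members and of every other measured pathway gene, grouped by role; bars are ±1 technical SD between probe sets of a gene, triangles mark lower bounds, dotted lines mark 2-fold and the dashed line the median of all measured genes (0.36). Black marks ratios above 0 and amber those below: odc1 and sms lie right of 1 and the 4 acetylation and oxidation genes lie left of 0.

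Among genes linked to polyamine uptake or export, 5 of 13 were measured and 1, slc22a2, was past 2-fold. This organic cation transporter gene read 283 on the M-titled array and 613 on the X-titled array (-1.12), with -1.33 on its second probe set. The transporter subunit genes slc3a2a and slc3a2b had log2 ratios of 0.72 and 0.13. The caveolin gene cav1 had ratios from 0.0087 to 1.01 over its 3 measured probe sets, which differ by more than their technical SD. The ATPase gene atp13a1, which may not be a polyamine transporter, was dim on both arrays. It was under the floor on the M-titled one and at least 1.38-fold brighter on the X-titled one.

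Polyamines gate some gap junctions and inward rectifier potassium channels, and channels of both kinds shape zebrafish stripes. Of 11 genes listed for channels of these kinds or their contact partners, only the connexin 43 gene gja1b had a named probe set. It may not be a connexin that polyamines gate, which was not tested. The gja1b probe set read 1871 on the M-titled array and 921 on the X-titled array (1.02, or 2.03-fold), and 1.56-fold with the spike-ins set equal.

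In mammals odc1 is a target of the transcription factor MYC, and the myc network genes were listed for that reason. None of the 7 measured genes, of 12 listed, was past 2-fold as deposited. The gene mycb read 1123 on the M-titled array and 1799 on the X-titled array (-0.68). The gene mycn read 1538 on the M-titled and 1009 on the X-titled array (0.61), with 0.77 on its second probe set. The call of both depends on the scaling: mycb was 2.09-fold brighter on the X-titled array with the spike-ins set equal, and past 2-fold there under every other scaling but the ribosomal one, under which mycn was 2.16-fold brighter on the M-titled array. The others were mych (-0.14), myca (at least 1.53-fold towards the X-titled array, from dim signals), mycla (0.46), the partner gene max (0.47) and the antagonist mxd4 (0.96). The second max probe set was at 0.06. Calls of mxd4 and myca also moved with the scaling. Under the ribosomal one mxd4 was 2.76-fold brighter on the M-titled array. On the X-titled array myca was at least 2.15-fold brighter with bright probe sets set equal. With equal trimmed means it was at least 2.05-fold brighter there.

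Over these 8 pathway lists together, 34 genes were measured. As deposited, 5 were 2-fold brighter on the M-titled array (oaz2b, aldh18a1, mat1a, eif5a2 and gja1b) and 3 on the X-titled array (sat1b, aoc2 and slc22a2). Of all measured genes, 15.5% and 4.09% were. The median log2 ratio of the 34 was 0.19, beside 0.36 for all measured genes. With the spike-ins set equal 1 of the 34 was 2-fold brighter on the M-titled array and 4 on the X-titled array, while 6.59% and 8.25% of all measured genes were. Among the 30 of them measured above the floor on both arrays, the ratios closest to that of sms were those of mat1a (difference 0.04) and aldh18a1 (0.14), and the same genes were closest to odc1 (0.18 and 0.29). The closest to oaz1a were cav1 (0.0047) and oaz1b (0.02). That holds for the probe set taken for each gene. The other measured cav1 probe sets had log2 ratios of 0.34 and 1.01, and the other oaz1b probe set 0.16. With 2 arrays, likeness is that of 1 ratio, and 710 measured genes lay within 1 technical SD of the ratio of odc1.

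Markers of pigment cells and of other cells differed between the arrays too, and their part in the polyamine gene ratios was not tested. As deposited, 15.5% of all measured genes were 2-fold brighter on the M-titled array and 4.09% on the X-titled array. Of the xanthophore pigment genes, 6 of 8 measured were 2-fold brighter on the M-titled array. They were led by bco1 (32.3-fold) and scarb1 (22.5-fold), with gch2 at 5.72-fold. In this list 1 gene had a log2 ratio below 0 (-0.34). Of the melanin genes, dct was 11.8-fold brighter on the X-titled array, rab32a 2.52-fold on the other, and tyr lay near the floor on both. The M-titled array is the one whose source name and cell type field say xanthophores. Which label is right was not tested. Endothelial markers were 2-fold brighter on the M-titled array in 5 of 6 measured (lyve1a 10.9-fold, kdrl 4.34-fold). Over all 8 endothelial genes with a probe set, the summed signals were 4072 there and 939 on the X-titled array. Connective tissue and bone markers were 2-fold brighter on the X-titled array in 13 of 13 measured (spp1 20.6-fold, col10a1a 6.65-fold). Over all 15 of this list with a probe set, the sums were 6464 on the M-titled and 26348 on the X-titled array.

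Keratinocyte markers were 2-fold brighter on the M-titled array in 3 of 12 measured, beside 15.5% of all measured genes. The largest log2 ratios were those of cdh1 (2.07) and krt5 (1.57), while 5 of the 12 had a ratio below 0 and the list's median was 0.08. Leukocyte markers were 2-fold brighter on the M-titled array in 2 of 5 (cd74b 2.79-fold, cd74a 2.44-fold), with 1 leukocyte gene 2-fold brighter on the other. The sums of the keratinocyte and leukocyte lists, over all 15 and 9 genes with a probe set, were 27896 and 748 on the M-titled array. On the X-titled array they were 25255 and 555. Both measured erythrocyte genes were brighter on the X-titled array (hbaa1 at least 20.3-fold, hbae3 2.10-fold). Over all 6 erythrocyte genes with a probe set, the sums were 154 on the M-titled and 1236 on the X-titled array. The measured iridophore genes crip2 and ednrba and the muscle gene actc1b lay within 2-fold, as did uchl1 of the Schwann cell and neuron list, where mbpa was at least 2.09-fold brighter on the M-titled array. No marker was listed at 0 on either array.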

How the data were processed

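The values deposited by the authors are linear signal intensities, 1 per probe set and array. Per the labels' protocols, an outside service made them with MAS 5.0 and Affymetrix's standard procedure, and the submitters' processing notes name MAS5 with no version. Its scaling target is not stated. Of 15617 probe sets per array, 115 are controls; of the 15502 others, 10795 have 1 gene symbol in the platform annotation (updated through the NCBI gene ID, which changed 1), 135 have several (left unnamed) and 4572 have none listed.

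Samples were grouped by title. Signals under an array's median were raised to it before the log2 ratio. A gene took its probe set with the highest mean log2 signal and counted as measured if the brighter of its signals was at or above its array's median. The number of arrays, 2, limits the precision. Members and gene lists were chosen with earlier results of these data known. All members and all measured pathway genes are named, with the 2 largest ratios of each marker list, the pigment genes gch2, bco1, dct and tyr, and the 2 pathway genes with the ratio closest to each member's. Scalings, floors, filters and probe set rules were varied. Calculations used Python 3.11.15, pandas 2.3.3 and statsmodels 0.14.6 and were tested on simulated data.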

Additional observations from a re-analysis of the deposited data

How the results depend on the processing

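No result has a replicate check, and each ratio depends on how the arrays are set to a common scale, a choice that these files do not settle. Scalings by 1 factor move all ratios together by construction, which quantile normalization and lowess do not, and dim genes (sms, mat1a, aldh18a1, oaz2b) also depend on the floor. No paired analysis was possible because each title has 1 array and no result comes from a test. No member or pathway gene past 2-fold as deposited turned its direction under any alternative run; marker genes were not rerun.

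As deposited, the log2 ratios of odc1, sms and oaz1a were 1.36, 1.21 and 0.0039. They were 0.87, 0.72 and -0.49 with equal medians of bright probe sets, 0.94, 0.79 and -0.42 with equal trimmed means, and 1.86, 1.72 and 0.51 with ribosomal protein genes set equal. Quantile normalization gave odc1 0.85, and removing a lowess trend gave odc1 0.82 and sms 0.81. The count of members 2-fold brighter on the M-titled array, 2 as deposited, was 0 under quantile normalization, equal bright medians, spike-ins, trimmed means and lowess, and at the 4-fold threshold. It was 1 with a floor at the 65th percentile and 1 with the filter at the 75th percentile, which leaves sms out.

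The median of the acetylation and oxidation genes, aoc2 included, was -0.98 as deposited. It was -1.49 under quantile normalization, -1.47 with bright medians, -1.40 with trimmed means, -1.49 with lowess and -0.47 with ribosomal genes. The median over all 8 pathway lists, 0.19, was -0.30 with bright medians, -0.23 with trimmed means and 0.70 with ribosomal genes. As deposited, 15.5% and 4.09% of all measured genes were 2-fold brighter on the M-titled and the X-titled array. Of the 34 other pathway genes, 5 were 2-fold brighter on the M-titled array and 3 on the X-titled array. These counts were 1 and 5 under quantile normalization, 1 and 8 with bright medians, 11 and 1 with ribosomal genes, 1 and 5 with trimmed means, 1 and 6 with lowess, and 0 and 1 at 4-fold. On the M-titled array the count was 1 with spike-ins, 3 with the higher floor and 2 with the stricter filter. The shares as deposited do not apply to these alternatives. With ribosomal genes, 2271 of 5387 measured genes were 2-fold brighter on the M-titled array. With bright medians, 564 of 5456 were 2-fold brighter on the X-titled array.

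Over all measured genes, 854 were 2-fold brighter on the M-titled array and 225 on the X-titled array, a share of 79.1% for the first. These were 346 and 441 (44.0%) under quantile normalization, 285 and 564 (33.6%) with bright medians, 2271 and 126 (94.7%) with ribosomal genes, 361 and 452 (44.4%) with spike-ins, 331 and 485 (40.6%) with trimmed means, 334 and 439 (43.2%) with lowess, and 122 and 63 (65.9%) at the 4-fold threshold. With a floor at the 25th percentile or none, 345 were 2-fold brighter on the X-titled array. The percentages are of the genes past the fold, not of all measured genes. The measured genes numbered 5501 as deposited, 5504 under quantile normalization, 5456 with bright medians and 5387 with ribosomal genes. They numbered 5481 with spike-ins, 5474 with trimmed means and 5463 with lowess.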
